A study of Mus musculus with 12 samples.

Results

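Nr1d1 and Nr1d2 encode REV-ERBα and REV-ERBβ, nuclear receptors that repress transcription in the circadian clock. They were picked by the gene name that the arrays give to their probes, which gave 2 of 24089 genes tested and 3 of 55681 non-control probes, with 1 probe for Nr1d1 and 2 for Nr1d2. All 3 probes were well above background on all 12 arrays. RNA came from the hippocampus of 12 adult male wild-type mice kept in constant darkness, 1 mouse per 1-colour array and 3 mice at each circadian time. The CT18 mice were taken after 30 hours of darkness, the CT0 mice after 36, the CT6 mice after 42 and the CT12 mice after 48. The labels give no strain, and every group shared the genotype and the darkness. In constant darkness CT0 is the start of the subjective day and CT12 the start of the subjective night. The study asked which hippocampal genes follow the circadian time without light changes. Here the question was when each paralog was high, by how much it varied, and whether the patterns of the pair differed.

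REV-ERB proteins bind heme and sit on ROR elements in DNA, where they recruit the NCoR corepressor and the histone deacetylase HDAC3. They repress Arntl, which encodes the activator BMAL1, and compete there with the ROR receptors. BMAL1 and its partner CLOCK in turn activate Nr1d1 and Nr1d2 through E-boxes, and DBP and related factors activate through D-boxes, so the pair forms a feedback loop of the clock. In the hippocampus, as in other tissues outside the central pacemaker, this loop is thought to run in many cell types.

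The Nr1d1 probe is shown because a single probe carries all Nr1d1 values. It matches the minus strand of chromosome 11 between 98630526 and 98631028 (mm9, the build in the file headers). Its 60 bases span 503 bases of the genome, and so it crosses an intron; 1 of 3 reading frames is open throughout.
A_51_P223776: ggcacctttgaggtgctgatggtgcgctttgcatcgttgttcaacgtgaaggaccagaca
The Nr1d2 probe with the higher mean, A_55_P2148534, matches chromosome 14 between 19036568 and 19036627, and the other, A_52_P303891, between 19037253 and 19037312 (mm9, minus strand). A_55_P2148534 stands for Nr1d2 below unless the other is named.

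The promoters of both genes are shown because clock factors act there. Each line gives the 250 bases before the RefSeq start on the minus strand of build GRCm38.p6, at chr11:98775378-98775627 for Nr1d1 and at chr14:18239107-18239356 for Nr1d2. Capitals mark the motifs found. The letters searched, on both strands, were the E-box CACGTG, the related CACGTT, the D-boxes TTATGTAA and TTATGCAA, and AGGTCA, the core of a ROR element.
Nr1d1: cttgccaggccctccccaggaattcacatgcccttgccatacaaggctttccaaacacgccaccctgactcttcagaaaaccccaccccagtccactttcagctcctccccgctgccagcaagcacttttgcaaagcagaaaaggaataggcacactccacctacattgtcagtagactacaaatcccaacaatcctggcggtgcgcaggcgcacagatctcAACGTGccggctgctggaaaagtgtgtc
Nr1d2: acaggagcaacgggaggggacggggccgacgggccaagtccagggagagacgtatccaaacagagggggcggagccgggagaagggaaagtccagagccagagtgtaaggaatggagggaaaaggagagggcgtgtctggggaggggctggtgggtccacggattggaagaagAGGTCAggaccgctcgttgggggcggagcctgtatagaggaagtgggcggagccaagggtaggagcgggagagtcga
The Nr1d1 window held 1 CACGTT, read as AACGTG on the strand shown, with its first base at -28 from the start. The Nr1d2 window held 1 AGGTCA with its first base at -77. No other searched letters were in either window, and the motifs did not overlap. Of 32851 promoter windows of the same length, 3.85% held CACGTT and 14.02% AGGTCA, while 6.02% held CACGTG, 0.82% TTATGTAA and 0.69% TTATGCAA. These matches describe the letters in the windows and are not evidence of binding.

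One library stood apart. Across genes, which are not independent replicates, CT12 mouse 11 correlated with the others at 0.945 to 0.965, against at least 0.984 among the remaining 11. Among 8 markers of hippocampal and forebrain neurons, 7 lay more than 1 log2 unit below their median over libraries in this mouse, and the list median was -4.70 against -0.50 to 0.22 elsewhere. Emx1, one of these markers, was not well above background there. Of 6 measured cerebellar markers 5 lay more than 1 unit above, and their summed level was 8.05, against 1.36 to 2.90 in the mice of the other times. Their list median was 5.86 in mouse 11, 0.67 in CT12 mouse 10 and 0.06 in CT12 mouse 12, against -0.47 to 0.12 at the other times. Choroid plexus markers were high in 5 mice from all 4 times (CT0 mouse 1, CT6 mouse 7, CT12 mice 10 and 11, CT18 mouse 14), with list medians of 4.53 to 5.88 against -0.73 to -0.01 in the rest. Thalamic markers had a list median of 1.87 in CT12 mouse 10. The tests of the REV-ERB genes that rest on CT12 are therefore given with and without mouse 11. The part of these cell types in any result was not tested, and in this bulk RNA fewer cells of a type and less RNA per cell cannot be told apart. Each of the 3 slides held 1 array per time, always at the same position, so the effect of position cannot be told apart from that of time. Nor can the hours spent in darkness, since each time has its own and the CT18 mice were taken first.

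Nr1d1 had its highest level at CT6 and its lowest at CT18. Levels are log2 processed signal relative to the 75th percentile of the array. The CT0 mice had 0.16, 0.26 and 0.16, and the CT6 mice 0.93, 1.10 and 1.09. The CT12 mice had 0.56, 0.86 (mouse 11) and 0.72, and the CT18 mice -0.17, 0.05 and -0.10. Thus every CT6 mouse was above every other mouse, every CT18 mouse was below every other mouse, and none of the 6 pairs of times overlapped, where between 11% and 22.8% of all genes do not overlap, depending on the pair (11% for CT6 and CT0, 12.9% for CT12 and CT0, 11.5% for CT18 and CT0, 16% for CT12 and CT6, 22.8% for CT18 and CT6 and 18.3% for CT18 and CT12). Among all genes, 1.09% had all CT6 mice above the rest and 1.32% had all CT18 mice below the rest. The means were 0.20 ± 0.06 at CT0, 1.04 ± 0.10 at CT6, 0.71 ± 0.15 at CT12 and -0.07 ± 0.12 at CT18 (SD, n = 3 each). Without mouse 11 the CT12 mean was 0.64 ± 0.12 (n = 2).

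Nr1d2 was highest at CT12 and lowest at CT0. The CT0 mice had 1.13, 1.06 and 1.15, and the CT6 mice 1.46, 1.37 and 1.50. The CT12 mice had 1.89, 2.39 (mouse 11) and 1.82, and the CT18 mice 1.51, 1.44 and 1.39. Every CT12 mouse was above every other mouse and every CT0 mouse was below every other mouse, as in 1.7% and 0.0996% of all genes. CT6 and CT18 overlapped and were the only neighbours in the order of levels that did. The means were 1.11 ± 0.05 at CT0, 1.44 ± 0.06 at CT6, 2.03 ± 0.31 at CT12 and 1.45 ± 0.06 at CT18 (SD, n = 3 each). Most of the spread at CT12 came from mouse 11; without it the mean was 1.86 ± 0.05 (n = 2), still above all other mice.

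**Figure D1:**
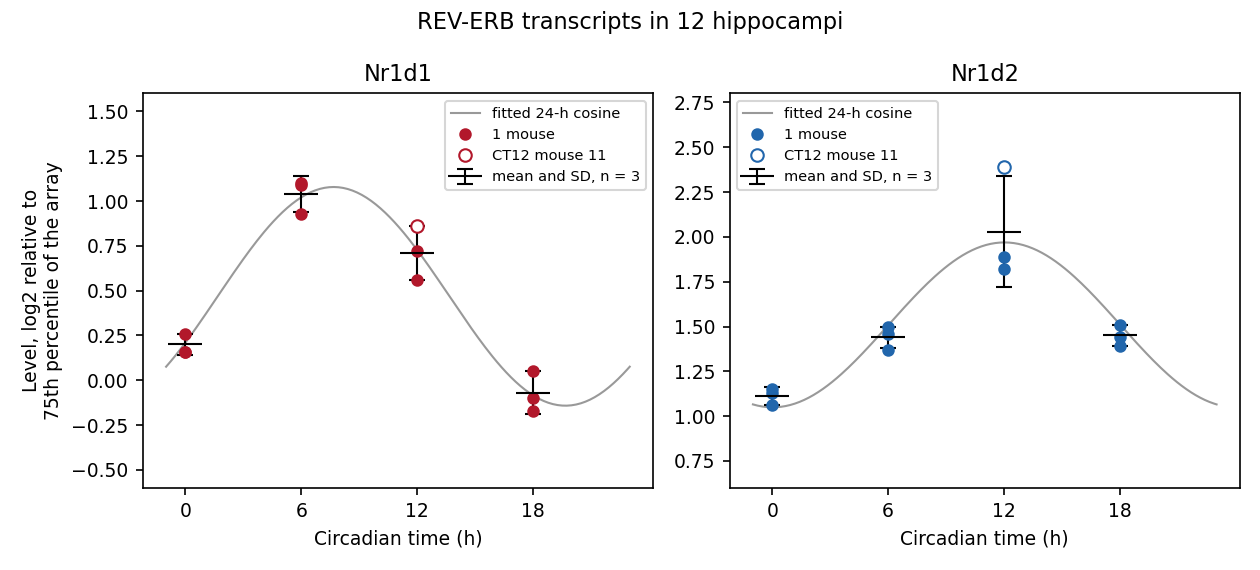
Level of Nr1d1 (left) and Nr1d2 (right) in each of 12 mice against circadian time in hours, as log2 intensity relative to the 75th percentile of the array, with the mean and SD of 3 mice and the fitted cosine of 24 hours. Nr1d1 is highest at CT6 (mean 1.04) and Nr1d2 at CT12 (mean 2.03), where the open circle, mouse 11, is the highest mouse of its time for both genes.

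With all 12 mice weighted equally, the variation over the 4 times passed the test for Nr1d1 and not for Nr1d2, which passed without mouse 11. By limma's F test with Benjamini-Hochberg adjustment over all genes, the adjusted p of Nr1d1 was 0.0191, the rank 5 among 24089 genes, of which 0.166% were called at an adjusted p under 0.05. For Nr1d2 it was 0.0939 (rank 100), and 0.0115 when limma weighted the arrays by their estimated quality. With those weights 860 genes were called, against 40 with equal weights. Without mouse 11 the adjusted p was 0.0117 for Nr1d1 and 0.0310 for Nr1d2, with 0.245% of genes called. The Nr1d1 call was lost without CT0 mouse 1 (0.0523), CT0 mouse 3 (0.0530), CT6 mouse 5 (0.0637), CT6 mouse 6 (0.0821), CT6 mouse 7 (0.0811), CT18 mouse 14 (0.0733) or CT18 mouse 16 (0.0788). It was also lost when dim probes were kept (0.0775) or arrays were centred on their median (0.297).

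A cosine with a period fixed at 24 hours placed the Nr1d1 peak at 7.67 h (SE 0.27, 95% interval 7.06 to 8.28) and the Nr1d2 peak at 12.02 h (SE 0.57, 10.72 to 13.32). The amplitude, the log2 distance from the middle to the peak, was 0.61 (SE 0.04, 0.52 to 0.71) for Nr1d1, a 2.34-fold ratio of peak to trough. For Nr1d2 it was 0.46 (SE 0.07, 0.30 to 0.62), a 1.89-fold ratio. The median amplitude over all genes was 0.13. With 4 times over 1 cycle, the fit has 1 degree of freedom to spare for the shape: the measured means were within 0.02 of the curve for Nr1d1 and within 0.06 for Nr1d2. By limma's F test on the cosine, Nr1d1 ranked first of all genes (adjusted p = 0.0108, 0.0706% of genes called), and Nr1d2 ranked 40 (adjusted p = 0.0987, and 0.00724 with arrays weighted by quality). With those weights the cosine called 776 genes, against 17 with equal weights. Without mouse 11 the adjusted p was 0.00723 for Nr1d1 and 0.0232 for Nr1d2 (rank 10), with 0.282% of genes called. In that fit the Nr1d2 peak stayed at 12.02 h (11.46 to 12.58) and its amplitude was 0.37, a 1.66-fold ratio, while Nr1d1 had its peak at 7.50 h and an amplitude of 0.60. The Nr1d1 cosine call was lost without CT18 mouse 14 (adjusted p = 0.0599).

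Between pairs of times, Nr1d1 was lower at CT18 than at CT6 and CT12. No Nr1d2 change passed the test with all 12 mice weighted equally and an ordinary variance model. Nr1d1 was 2.16-fold lower at CT18 than at CT6, a log2 difference of -1.11 (SE 0.11, adjusted p = 0.00578 by limma with Benjamini-Hochberg adjustment), where 0.0415% of genes were called lower. It was 1.72-fold lower at CT18 than at CT12, a difference of -0.78 (SE 0.11, adjusted p = 0.0248), where 0.12% were called lower. The CT6 minus CT0 difference was 0.84 (SE 0.11) and did not pass (adjusted p = 0.277), and no gene of the 24089 did in that pair, although 589 had an unadjusted p under 0.05 by limma. The CT12 minus CT0 difference of 0.52 (adjusted p = 0.172; 0.44 and 0.221 without mouse 11), the CT18 minus CT0 difference of -0.27 (adjusted p = 0.9999) and the CT12 minus CT6 difference of -0.33 (adjusted p = 0.381; -0.40 and 0.319 without mouse 11) did not pass either.

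The calls for Nr1d1 kept their direction under every library left out, and some crossed the threshold. The CT18 minus CT6 difference had an adjusted p of 0.0671 without CT6 mouse 7 and 0.0661 without CT18 mouse 16. The CT18 minus CT12 difference had 0.0616 without CT6 mouse 6, 0.0567 without CT6 mouse 7, 0.122 without CT18 mouse 14, 0.0516 without CT18 mouse 15 and 0.162 without CT18 mouse 16. Without mouse 11 both differences passed, at -1.11 (adjusted p = 0.00261, 0.448% of genes called lower) and -0.71 (adjusted p = 0.0344, 0.12% called lower). Median centring ended both calls (adjusted p = 0.317 and 0.354), and the CT18 minus CT12 call was also lost with dim probes kept (0.0774) and in a fit of only the 6 arrays compared (0.492).

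Nr1d2 was 1.89-fold higher at CT12 than at CT0, a log2 difference of 0.92 (SE 0.14) with an adjusted p of 0.0711 by limma; 0.0498% of genes were called higher in that pair. Without mouse 11 the difference was 0.74 (SE 0.08), a 1.67-fold rise that passed (adjusted p = 0.0355, 0.0208% called higher). Without CT12 mouse 12, which leaves mice 10 and 11 at CT12, it was 1.03 (adjusted p = 0.0277). In that fit 78 genes were called in this pair, against 14 with all mice weighted equally. With all 12 mice the CT12 minus CT0 difference passed under array quality weights (0.80, adjusted p = 0.0375) and under a variance trend with robust moderation (0.92, adjusted p = 0.0399). The CT18 minus CT12 difference was -0.59 (SE 0.14, adjusted p = 0.101). It was -0.41 without mouse 11 (adjusted p = 0.0682), -0.69 without CT12 mouse 12 (adjusted p = 0.0351) and -0.48 under array quality weights (adjusted p = 0.0228). Genes called in this pair numbered 97 with all mice weighted equally, 1260 without CT12 mouse 12 and 1021 under array quality weights. The differences of 0.59 from CT6 to CT12 (adjusted p = 0.294; 0.41 and 0.182 without mouse 11) and of 0.33 from CT0 to either CT6 or CT18 (adjusted p of at least 0.9999 for each) did not pass. CT18 and CT6 differed by 0.00 (SE 0.14), in the pair of times at which Nr1d1 differed most.

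**Figure D2:**
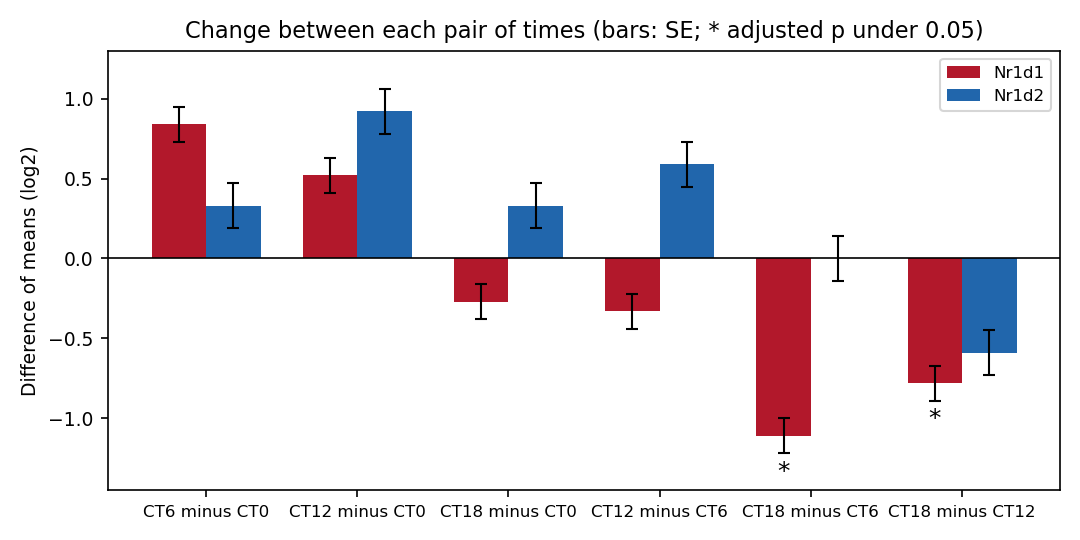
Log2 difference between each pair of circadian times for Nr1d1 (red) and Nr1d2 (blue), with the SE of the fit and a star where the adjusted p was under 0.05. Nr1d1 has its largest difference between CT6 and CT18 (-1.11), where Nr1d2 is at 0.00, and Nr1d2 has its largest between CT0 and CT12 (0.92).

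The patterns of the paralogs differed. Each level was first set relative to the gene's own mean over mice, since levels of different probes cannot be compared, and Nr1d1 was then subtracted from Nr1d2 within each mouse. This difference averaged -0.12 ± 0.10 at CT0, -0.64 ± 0.13 at CT6, 0.28 ± 0.21 at CT12 and 0.48 ± 0.15 at CT18 (SD, n = 3 each). It lay between -0.77 and -0.51 in the CT6 mice and between 0.06 and 0.64 in all CT12 and CT18 mice. An exact permutation test over the 369600 arrangements of mice gave p = 0.000195 for a difference over the 4 times and p = 0.000108 for a difference in the cosine (two-sided by construction of the F statistic, both 0.000195 after adjustment over the 2 tests). Without mouse 11 the adjusted p was 0.00013 and 8.66e-05. Over all alternatives run, the largest adjusted p was 0.00347, with mice exchanged only within slides.

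The fitted peaks differed in time, while the permutation tests above do not separate timing from amplitude. The Nr1d2 peak came 4.35 h after that of Nr1d1 (SE 0.60, 95% interval 2.98 to 5.72), and 4.52 h after it without mouse 11 (3.59 to 5.46). The amplitude of Nr1d2 minus that of Nr1d1 was -0.15 (SE 0.08), with an interval from -0.33 to 0.02 that includes 0. Without mouse 11 it was -0.23 (-0.36 to -0.11), an interval below 0, so whether Nr1d2 varied less was sensitive to that library. The choice of probe and the scaling also moved the difference. With each gene given by the mean over its probes and every mouse kept, it was -0.184 (SE 0.077). With arrays centred on their median and every mouse kept, it was -0.058 (SE 0.113).

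Over single pairs of times, the change of Nr1d2 exceeded that of Nr1d1 by 1.11 from CT6 to CT18, by 0.92 from CT6 to CT12, by 0.60 from CT0 to CT18 and by 0.40 from CT0 to CT12 (log2, SE 0.13 each). From CT0 to CT6 it was -0.51, that is, the Nr1d1 difference was the larger one. In these 5 pairs the mice did not overlap, and the exact permutation p was 0.1, the smallest that 3 mice against 3 can give (0.12 adjusted over 6 pairs). From CT12 to CT18 the means of both paralogs were lower, the difference between them was 0.20, the mice overlapped and the exact permutation p was 0.3. Without mouse 11 the 3 values that involve CT12 were 0.81 from CT6, 0.30 from CT0 and 0.30 to CT18. With that mouse left out, CT12 had 2 mice, and the mice did not overlap in any of these 3 pairs. Fewer mice make such a separation easier to reach, and it was not tested.

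**Figure D3:**
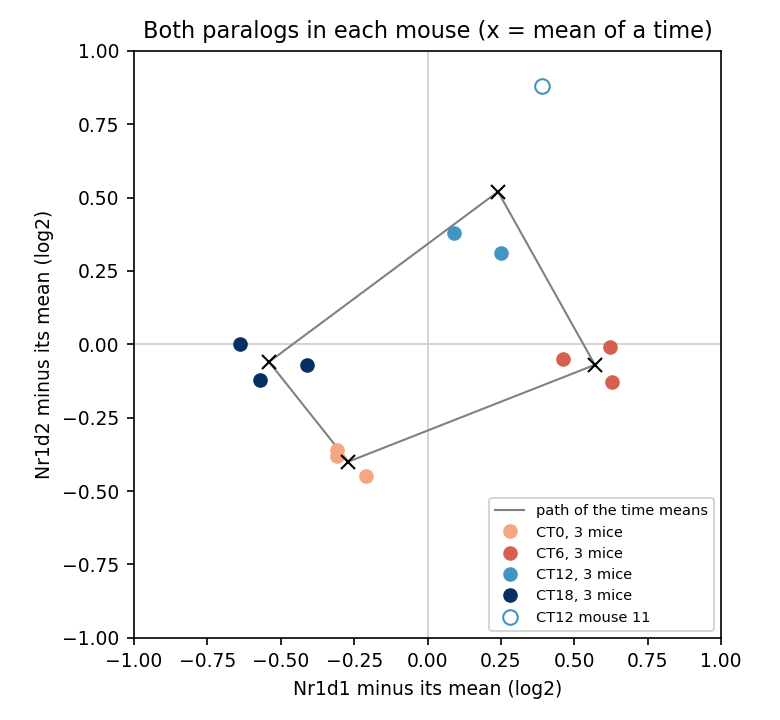
Nr1d2 against Nr1d1 in each mouse, both as log2 difference from the gene's mean over 12 mice, coloured by circadian time, with crosses at the time means joined in the order CT0, CT6, CT12, CT18. The path then returns to CT0 and is a closed loop. The means of Nr1d1 and Nr1d2 are -0.27 and -0.40 at CT0 and 0.57 and -0.07 at CT6. They are 0.24 and 0.52 at CT12 and -0.54 and -0.06 at CT18, so both are lower at CT18 than at CT12.

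The same order was seen on each slide. Nr1d1 had its peak at CT6 and its lowest value at CT18 on all 3 slides, and Nr1d2 was highest at CT12 and lowest at CT0 on all 3. The CT18 minus CT6 difference of Nr1d1 was -1.04, -1.19 and -1.10 on slides 1, 2 and 3. The fitted peak of Nr1d2 followed that of Nr1d1 by 4.20, 3.73 and 4.94 h. The amplitude of Nr1d2 was larger by 0.06 on slide 1, which holds mouse 11, and the difference was -0.31 and -0.21 on slides 2 and 3. With slide as a block, limma's F test gave an adjusted p of 0.0149 for Nr1d1 and 0.133 for Nr1d2, with 0.0664% of genes called.

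Within a time, mice with more Nr1d1 could not be shown to have more Nr1d2. The deviations from the time means correlated at Pearson r = 0.41 (exact permutation p = 0.625, 12 mice) and Spearman rho = 0.12 (exact permutation p = 0.8125). Without mouse 11 r was -0.54 (exact permutation p = 0.183), and without the 2 mice farthest from the median, CT12 mice 10 and 11, it was -0.47 (exact permutation p = 0.310). With slide means also removed r was 0.55 over 12 mice. The sign of the relation thus rested on mouse 11, which had the highest value of its time for both genes.

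The other Nr1d2 probe had its means in the same order, lowest at CT0 and highest at CT12. A_52_P303891 averaged 0.46 ± 0.05 at CT0, 0.78 ± 0.06 at CT6, 1.25 ± 0.40 at CT12 and 0.87 ± 0.13 at CT18 (SD, n = 3 each). At CT12 its values were 1.17, 1.68 in mouse 11 and 0.89, so mouse 12 was near the CT18 mean. Its fitted peak was at 12.41 h and its amplitude was 0.40. In a fit over 33965 single probes its F test gave an adjusted p of 0.287, and 0.147 without mouse 11, against 0.122 and 0.0429 for A_55_P2148534.

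The ROR receptors, which share the ROR element with REV-ERB, gave 0 of 3 genes called by limma's F test, against 0.166% of all genes. Rora, the receptor with the smallest p (adjusted p = 0.279), had its highest mean at CT12, where the mice had 2.11, 3.08 in mouse 11 and 1.49, against 0.50 to 1.23 at the other times. Of the 6 genes of the corepressor complex 0 were called. Ncor1, a scaffold corepressor, had an adjusted p of 0.407 and an amplitude of 0.12. The median amplitude of the complex was 0.12, against 0.13 over all genes.

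Of the activators that act through E-boxes and D-boxes, 1 of 6 was called by limma's F test, against 0.166% of all genes; without mouse 11 it was 0. Dbp, a D-box activator, had 4.54, 4.32 and 4.06 at CT0, 5.04, 5.35 and 5.18 at CT6, 5.57, 5.92 and 5.58 at CT12, and 4.50, 5.02 and 4.69 at CT18. Its CT12 mice were above all others, as in 1.7% of all genes. Its fitted peak, at 10.8 h with an amplitude of 0.73, lay between the peaks of Nr1d1 and Nr1d2. Its F test gave an adjusted p of 0.0484, which was 0.0611 without mouse 11 and 0.0699 with slide as a block.

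Of the repressors of the E-box and D-box loops, 2 of 9 were called by limma's F test, against 0.166% of all genes, and 1 of 9 against 0.0664% with slide as a block. Ciart, which represses CLOCK and BMAL1, had means of -3.68 ± 0.29 at CT0, -2.71 ± 0.13 at CT6, -1.82 ± 0.10 at CT12 and -3.45 ± 0.14 at CT18 (SD, n = 3 each). Its fitted peak was at 10.56 h and its amplitude of 1.0 was larger than that of either REV-ERB gene (adjusted p = 0.0095, and 0.0138 without mouse 11). Per2, a period gene, was the other, with means of -1.29 ± 0.09, -1.46 ± 0.06, -0.83 ± 0.22 and -0.58 ± 0.08 in the same order. Its fitted peak at 16.18 h came after those of both paralogs (adjusted p = 0.0463, 0.0330 without mouse 11 and 0.0744 with slide as a block). Over CT18 minus CT6 Per2 differed by 0.88 (SE 0.12, adjusted p = 0.0239, 0.0913% of genes called higher), the opposite sign to Nr1d1.

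**Figure D4:**
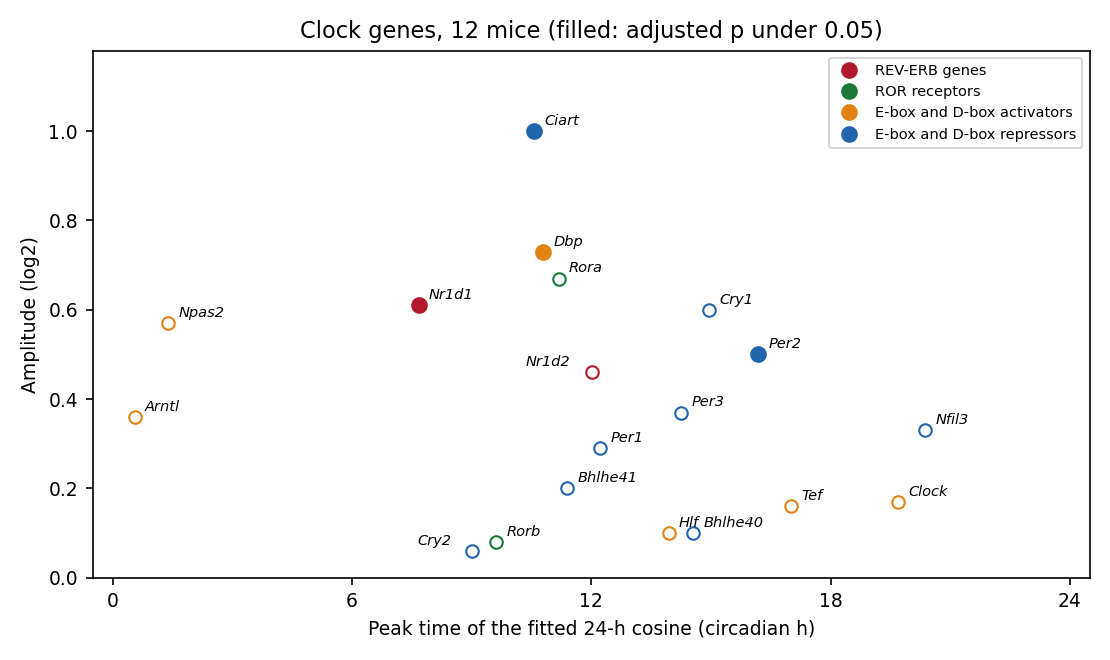
Amplitude (log2) against peak time (circadian hours) of the fitted cosine of 24 hours for the REV-ERB genes, the ROR receptors Rora and Rorb and the clock activators and repressors, 12 mice, filled where the adjusted p of the cosine was under 0.05. Nr1d1 peaks at 7.67 h, before Ciart (10.56 h), Dbp (10.8 h) and Nr1d2 (12.02 h), and Arntl lies at 0.55 h.

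Of the clock genes repressed through ROR elements, 0 of 6 were called by limma's F test, where 0.166% of all genes were, so that a count of 0 is near the background. Arntl, the best known REV-ERB target, had 1.20, 1.57 and 1.47 at CT0, 1.24, 1.26 and 1.08 at CT6, 0.65, 0.66 and 0.80 at CT12, and 1.07, 1.08 and 1.12 at CT18. All CT12 mice were below all others, as in 2.93% of genes, so Arntl was lowest at the time when Nr1d2 was highest. Its fitted peak was at 0.55 h with an amplitude of 0.36, and its F test did not pass (adjusted p = 0.111, and 0.118 without mouse 11). The CT12 minus CT0 difference was -0.71 (SE 0.11, adjusted p = 0.0733; -0.69 and 0.113 without mouse 11), against 0.92 for Nr1d2 and 0.52 for Nr1d1. Cry1, a cryptochrome repressor in the same list, had an adjusted p of 0.139 and its lowest mean, -5.34 ± 0.43, at CT6, the time of highest Nr1d1. Unlike Arntl, it had its highest mean, -3.82 ± 0.22, at CT12, the time of highest Nr1d2. Its signal was dim, with every value below the median of its array, which lay 2.89 to 3.67 under the 75th percentile. Over the list, the median CT12 minus CT0 difference was -0.27, against -0.02 over all genes (-0.16 and -0.01 without mouse 11), and the median CT18 minus CT6 difference was 0.23, against -0.02.

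Of 9 other genes reported as repressed by REV-ERB in some tissue, 8 were measured and 0 called by limma's F test, against 0.166% of all genes; Il6 did not pass the filter on dim probes. Fabp7, a fatty acid binding protein of astrocytes and neural progenitors, had 2.41, 2.76 and 2.62 at CT0, 2.53, 3.06 and 2.64 at CT6, 1.94, 2.22 and 1.74 at CT12, and 1.49, 1.82 and 1.94 at CT18. Its fitted peak was at 3.84 h (F test adjusted p = 0.131, and 0.0787 without mouse 11). Its CT18 minus CT6 difference of -0.99 (SE 0.19) had the sign of that of Nr1d1 (adjusted p = 0.0793). Without mouse 11 the adjusted p by limma was 0.0329, where 0.448% of all genes were called lower. Ccl2, a chemokine, had an adjusted p of 0.291, with -4.26 ± 0.13 at CT0 and -5.13 ± 0.21 at CT6. Like Cry1, it was dim, with every value below the median of its array. The median CT12 minus CT0 difference of the 8 genes was -0.41, or -0.24 without mouse 11, and their median CT18 minus CT6 difference was -0.04.

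Of 12 genes of heme synthesis and breakdown, which set the supply of the REV-ERB ligand, 0 were called by limma's F test, and their median amplitude was 0.12 (0.08 without mouse 11, where it was 0.11 over all genes). Blvrb, a biliverdin reductase, and Alad, an enzyme of heme synthesis, had the smallest p, with adjusted p of 0.372 and 0.415. Of 6 genes of kinases and ubiquitin ligases linked to REV-ERB protein stability 0 were called as well, near the 0.166% of all genes in both lists, with a median amplitude of 0.05. Fbxw7 and Gsk3b led them with adjusted p of 0.544 and 0.624. These arrays measured RNA, and REV-ERB protein was not measured.

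No measured neighbour of the pair in the genome was called by limma's F test. Thra, the thyroid hormone receptor gene that overlaps Nr1d1 on the opposite strand, had means of 5.06 ± 0.04, 5.21 ± 0.00, 4.95 ± 0.26 and 5.08 ± 0.03 at CT0, CT6, CT12 and CT18 (SD, n = 3 each; adjusted p = 0.671 by limma's F test). Its probes match the plus strand and that of Nr1d1 the minus strand, and the probe coordinates do not overlap. Near Nr1d1, Med24, Msl1 and Casc3 had adjusted p from 0.364 to 0.947. Near Nr1d2, the thyroid hormone receptor gene Thrb, Rpl15 and Nkiras1 had adjusted p from 0.735 to 1.0. Csf3 and LOC115488350, the remaining nearest genes, were not measured after the filter on dim probes.

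The likeness of patterns was measured by Pearson's r over the 12 arrays, against 16092 other genes with a RefSeq symbol, and is a description without a test. Most like Nr1d1 were Mir9-3hg (r = 0.965), Map3k9 (0.944), Pla2g4e (0.941), Tubgcp2 (0.933) and Tbx2 (0.919), and without mouse 11 these were at 0.970, 0.958, 0.936, 0.928 and 0.921. All 5 had their highest mean at CT6, with fitted peaks from 7.00 to 8.39 h, and Pla2g4e passed limma's F test (adjusted p = 0.0346). Most opposite to Nr1d1 were H2bc6 (-0.942), Arih1 (-0.938) and Luc7l (-0.938), all highest at CT18, of which H2bc6 passed (adjusted p = 0.0231).

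Most like Nr1d2 were Prr5 (r = 0.946), Kcnip4 (0.934), Trp53inp1 (0.933), Slc25a32 (0.932) and Tmem204 (0.927), all highest at CT12. Without mouse 11 these were at 0.905, 0.850, 0.845, 0.844 and 0.843, each lower than over the 12 arrays. Among the genes most opposite to Nr1d2 were Sox2 (-0.965) and Sctr (-0.945), both highest at CT0. None of the genes named here for their likeness or opposition to Nr1d2 passed limma's F test. The paralogs themselves correlated at 0.398 over the 12 arrays, which placed Nr1d2 at rank 2696 of 16092 in likeness to Nr1d1. Without mouse 11 the correlation was 0.309 and the rank 4297.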

How the data were processed

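Per the labels' protocols, Cy3 labelling of total RNA used Low Input Quick Amp. Per the file headers, the authors quantified spots with Agilent Feature Extraction 10.7.3.1, which gives a background-subtracted, detrended intensity for each spot with no scaling between arrays. Flags of each spot (other, 0 or 1) are also from the deposited files. The authors' deposited table holds log2 values with column medians of 5.369 to 5.370; how it was scaled and centred is not given in the sources used here, and each column correlated best with its own array (r from 0.990). It served as an alternative. Mice were grouped by the circadian time in their titles.

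Values here are log2 of that intensity, less the 75th percentile of non-control probes on the same array. Of 55681 probes, 146 had a missing value and 33965 were well above background on all 3 arrays of at least 1 time. Each gene is given by its probe of highest mean. Names came from a RefSeq table (GRCm38.p6), which matched 26582 probes by accession, 2602 by symbol and 492 by synonym; 26005 kept the array's name. Promoter windows are RefSeq's. For depth, 59.3% to 77.1% of 59305 non-control spots were well above background and 0 saturated; the highest share was on CT0 mouse 3. The local background was 100 on CT0 mouse 1 and 25 to 37 elsewhere. The number of arrays limits the precision.

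R 4.3.3 with limma 3.58.1 fitted 1 mean per time, or a cosine and a sine of 24 hours, to all genes, with Benjamini-Hochberg adjustment over all 24089 genes, for each pair of times on its own. Paralog differences were tested by exact permutation (numpy 2.4.6, scipy 1.17.1), with delta-method intervals for peak and amplitude. The procedures were checked on simulated data. The members, the lists and the alternatives were chosen with earlier results of these data known. From each list the genes called by the F test are named, or else those with the 2 smallest p, besides Arntl and Thra; likeness names the 5 highest and 3 lowest r. A few genes picked by these rules are left out of the text. Alternatives covered scaling, background correction, filters, probe summary, variance model, array weights, slide and each library left out.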

Additional observations from a re-analysis of the deposited data

How the results depend on the processing

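The difference between the paralogs passed in all 20 alternatives run for it, with a lag of the Nr1d2 peak between 3.95 and 4.56 h. Among them, keeping dim probes, or only probes well above background on all 12 arrays, left the values of both genes unchanged. Those settings could not alter this test. Centring on the median moved the median gene by 0.18 to 0.26 between CT0 and the other times; CT0 mouse 3 had the smallest distance from median to 75th percentile, 2.89 against 3.41 to 3.67. Under it the Nr1d1 F test had an adjusted p of 0.297, the cosine 0.269 with the peak at 8.38 h, and the Nr1d1 differences were -1.02 for CT18 minus CT6 (adjusted p = 0.317) and -0.73 for CT18 minus CT12 (0.354). With dim probes kept, which tests 36041 genes, the Nr1d1 F test had 0.0775 and CT18 minus CT12 was -0.78 (0.0774); in only the 6 arrays compared it was again -0.78 (0.492). Array quality weights gave calls that the equal weights did not: Nr1d1 CT6 minus CT0 0.85 (0.0246), and for Nr1d2 the F test 0.0115, the cosine 0.00724, CT12 minus CT0 0.80 (0.0375) and CT18 minus CT12 -0.48 (0.0228). A variance trend with robust moderation gave Nr1d2 CT12 minus CT0 0.92 (0.0399). The cause of these shifts was not tested.

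With each library left out in turn, the adjusted p ranged from 0.0117 to 0.0821 (F test) and 0.00723 to 0.0599 (cosine) for Nr1d1, and from 0.0310 to 0.282 and 0.0232 to 0.268 for Nr1d2. Nr1d1 CT18 minus CT6 ranged from -1.17 to -1.06 and CT18 minus CT12 from -0.86 to -0.71. Nr1d2 CT12 minus CT0 ranged from 0.74 to 1.03 and CT18 minus CT12 from -0.69 to -0.41. The correlation within times was -0.54 without mouse 11. The count of all genes called by limma's F test, 40, was 8 with median centring, 2 with dim probes kept, 16 with slide as a block, 860 with array weights, and 0 to 117 with a library left out. It was 0 when any of the CT6 mice or CT18 mouse 14 was left out, where 1804 to 2056 genes had an unadjusted p under 0.05. The cosine count, 17, ranged from 0 to 776, with 0 without CT18 mouse 14 (1788 genes at an unadjusted p under 0.05). The counts per pair ranged from 0 to 2 for CT6 minus CT0, 1 to 78 for CT12 minus CT0, 0 to 14 for CT18 minus CT0, 0 to 70 for CT12 minus CT6, 1 to 1985 for CT18 minus CT6 and 0 to 1260 for CT18 minus CT12. Of the genes called, 22 of 32 were higher for CT18 minus CT6 and 12 of 14 for CT12 minus CT0, and with quantile normalization 43 of 53 and 7 of 7. No mouse number occurs at more than 1 time, so the numbers pair no mice; the matching of arrays by slide was run as a block. All 3 probes were well above background on every array, and the precision rests on 3 mice per time over 1 cycle.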
